A study of Mus musculus with 8 samples.

Results

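The genes described here encode GABA-A receptor subunits in primary motor cortex (M1): *Gabra2*, *Gabra3*, *Gabra4*, *Gabra5*, *Gabrb1*, *Gabrb2* and *Gabrd*. They were taken by name, and each was represented by its annotated transcript of lowest Ensembl number among those counted. These were 7 of the 38031 genes in the counts, and all 7 were among the 9959 that had more than 8 CPM (counts scaled to a common library total) in at least 4 libraries and were tested. Tissue came from male Swiss Webster mice in which a lentivirus had been placed in M1 at P21 to P25, and M1 was taken at P49 to P53. The virus of the *Fezf2 shRNA*-treated group (4 libraries) carried an shRNA against *Fezf2*, a transcription factor of deep-layer projection neurons, and that of the control group (4 libraries) a *non-silencing shRNA*. In both groups the shRNA, flanked by mir-30 sequence, was transcribed together with mCherry from a rat *Synapsin I* promoter, which drives expression in neurons. The dissection followed mCherry but took every cortical layer and the meninges, so untransduced neurons and other cell types were in each sample. The study also used *Fezf2-Gfp* transgenic mice, but its knockdown mice were wild type.

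GABA-A receptors are pentameric chloride channels opened by the inhibitory transmitter GABA, which binds between alpha and beta subunits. The alpha subunit and the presence of a gamma or delta subunit set where a receptor sits and how it responds to drugs. Many receptors with a gamma subunit, though not all, gather at synapses. Those with the delta subunit lie outside them and carry tonic inhibition. In cortex most neurons make several of these subunits, and projection neurons and interneurons make them in different mixtures.

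Total RNA was sequenced, and the libraries held 54684016 to 58003814 counts over 1 transcript per gene. For the members, counting alone gives an SD of 0.867% to 2.69% of the mean if every count is independent. The libraries held more counts than the aligned read pairs the study lists, so both mates of a pair may be counted. The counting SD would then be larger than this. The SD within a group was 3.05% to 17.3%. It was more than 2 times the counting SD for independent counts in 13 of 14 cases (7 members in 2 groups). The exception was *Gabrd* in controls, at 3.09% against 2.64%. The options used in counting are not stated, so what a count covers was read from the values. Among 2148 pairs in which a transcript with at least 1000 counts over the 8 libraries lay within an intron of another gene on the opposite strand, it had no more counts than the surrounding transcript in every library in 2147, as did 1343 of 1345 on the same strand. The counts were therefore taken to cover a transcript from start to end, exons and introns, on both strands, so that a value for a gene holds reads from spliced and unspliced RNA. Values below are normalized counts: counts scaled to a common library size by the TMM method. A gene passed the threshold when its adjusted p was 0.05 or less and its log2 fold change was 0.2 or more in either direction. As many mice were injected in each group as there were libraries, as the study describes them, but no label ties a library to 1 mouse, so p-values measure the spread between these samples.

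*Fezf2* lies on the minus strand at chr14:12342102-12345959 in GRCm38. It had 688, 767, 735 and 702 normalized counts in control replicates 1 to 4 and 621, 583, 568 and 592 in *Fezf2 shRNA* replicates 1 to 4. All 4 *Fezf2 shRNA*-treated libraries lay below all 4 controls. The log2 fold change was -0.29 (SE 0.0781), with an adjusted p of 0.0824 in the edgeR quasi-likelihood test, which is not past the threshold. By the DESeq2 Wald test it was -0.28 with an adjusted p of 0.0256, and over all alternatives the adjusted p ran from 0.0256 to 0.459. The log2 fold change was smaller in size, -0.18, when the trend of counts with genomic span was removed, as described with the spans. The shRNA itself is shown because a match to a member would matter for reading its counts.

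*Fezf2 shRNA*, sense strand: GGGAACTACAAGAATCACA

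Its 19 nt were found unbroken in annotated *Fezf2* transcripts. Over the annotated transcripts of the 7 members, the longest shared run on either strand was 10 nt, in *Gabra2* and *Gabrb1*, and the shortest of these maxima was 7 nt, in *Gabra5*.

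The libraries of *Fezf2 shRNA* replicates 1 and 3 stood apart from the other 6 for 5 of 9959 genes, at more than 3 times the level of every other library. One of these genes, *Gphn*, encodes gephyrin, the scaffold that holds GABA-A receptors at synapses, and its values are given with the pathway. No member was among them. Member values without both libraries are given where they change a call.

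With *Fezf2 shRNA*, 1 of the 7 members passed the threshold, *Gabrb1*, which was higher. Over all genes tested 2.09% passed, 1.96% higher and 0.131% lower, so 1 call among 7 genes is a small count. In the mean, 5 members were higher and 2, *Gabra5* and *Gabrd*, were lower; *Gabrd* turned higher in 4 alternatives and *Gabrb2* lower in 2, none of them with DESeq2 size factors or library totals. The median log2 fold change of the members was 0.18, beside -0.03 over all genes tested. The groups did not overlap for 3 members, *Gabra2*, *Gabrb1* and *Gabrb2*, all higher with *Fezf2 shRNA*; over all genes tested 7.41% did not overlap and were higher. No member was lower without overlap, which 4.41% of genes tested were. By the DESeq2 Wald test 2 members passed the threshold, *Gabrb1* and *Gabra2*, both higher, beside 6.61% of genes tested that were higher and 7.55% in either direction.

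**Figure D1:**
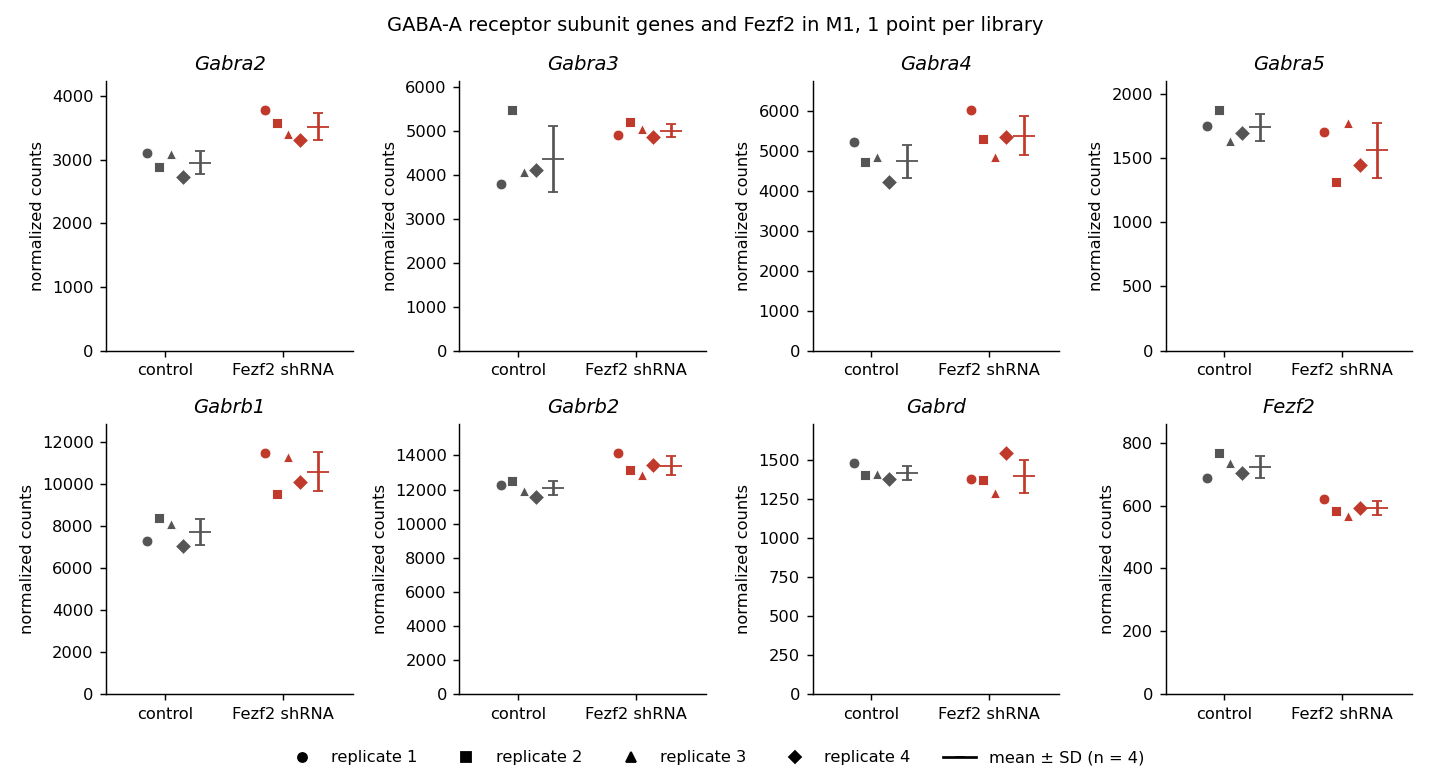
Normalized counts (vertical axes, each from 0) of the 7 members and *Fezf2* in 4 control and 4 *Fezf2 shRNA*-treated libraries, with 1 point per library, its symbol giving the replicate, and the mean ± SD (n = 4) beside the points. *Gabra2*, *Gabrb1* and *Gabrb2* lie higher in all *Fezf2 shRNA*-treated libraries than in any control, *Fezf2* lies lower in all of them, and control replicate 2 is high for *Gabra3*.

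*Gabra2* encodes an alpha subunit known from receptors on the axon initial segment of projection neurons. The counted transcript, ENSMUST00000000572, is annotated as subject to nonsense-mediated decay and lies on the minus strand at chr5:70961061-71094640, with 9 exons. Its interval stops 1209 bp short of the annotated start of the gene and 3464 bp short of its end. *Gabra2* had 3097, 2882, 3093 and 2722 normalized counts in control replicates 1 to 4 and 3779, 3579, 3406 and 3303 in *Fezf2 shRNA* replicates 1 to 4. Every *Fezf2 shRNA*-treated library was above every control, by a small margin between the lowest treated and the highest control library. Its log2 fold change was 0.25 (SE 0.067) and the adjusted p in the edgeR quasi-likelihood test was 0.0782, not past the threshold; the DESeq2 adjusted p was 0.0149, and over all alternatives it ran from 0.0149 to 0.586.

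*Gabra3*, an X-linked alpha subunit gene, is counted on the minus strand at chrX:72432681-72656186 (ENSMUST00000055966, 10 exons). It had 3802, 5487, 4084 and 4107 normalized counts in controls 1 to 4 and 4919, 5209, 5055 and 4868 in *Fezf2 shRNA* replicates 1 to 4. Control replicate 2 exceeded every other library, and the other 3 controls lay below all *Fezf2 shRNA*-treated libraries. With all libraries the log2 fold change was 0.20 (SE 0.102) and the edgeR adjusted p 0.297. Without control replicate 2 it was 0.33 with an adjusted p of 0.021, past the threshold, while over all alternatives the adjusted p ran from 0.021 to 0.991.

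*Gabra4*, whose product assembles with the delta subunit in receptors outside synapses, lies on the minus strand at chr5:71569749-71658308 (ENSMUST00000031121, 9 exons). Its normalized counts were 5218, 4713, 4849 and 4217 in controls 1 to 4 and 6030, 5291, 4848 and 5345 in *Fezf2 shRNA* replicates 1 to 4. The groups overlapped: *Fezf2 shRNA* replicate 3 lay within the controls, and the other 3 were above them. A log2 fold change of 0.18 (SE 0.0815, edgeR adjusted p = 0.256) did not pass the threshold.

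*Gabra5* encodes an alpha subunit found largely outside synapses, and it was counted on the minus strand at chr7:57407672-57510009 (ENSMUST00000068456, 10 exons). Its normalized counts were 1751, 1873, 1631 and 1692 in controls 1 to 4 and 1701, 1315, 1771 and 1443 in *Fezf2 shRNA* replicates 1 to 4. *Fezf2 shRNA* replicates 2 and 4 were below the controls, and replicates 1 and 3 were among them. The log2 fold change was -0.16 (SE 0.0962, edgeR adjusted p = 0.375). It was negative in all 18 alternatives, but its size depended on the libraries used: it ran from -0.22 (without *Fezf2 shRNA* replicate 3) to -0.083 (without replicate 2) with 1 library left out, and was -0.33 without replicates 1 and 3 together. Annotated genes on the opposite strand overlap this interval, and 1 of them covers 90318 of its 102338 bp. The counted transcript of that gene lies outside the interval and had 322 CPM, against 29.3 CPM for *Gabra5*. All *Gabra5* values, those by span included, are thus uncertain, since reads of that gene cannot be told apart from its own.

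*Gabrb1* encodes a beta subunit, the subunit that lines part of the GABA site, and has the widest interval of the 7, 449.11 kb on the plus strand at chr5:71699932-72149037 (ENSMUST00000031122, 9 exons). *Gabrb1* had 7276, 8381, 8095 and 7048 normalized counts in control replicates 1 to 4 and 11450, 9526, 11271 and 10054 in *Fezf2 shRNA* replicates 1 to 4. All 4 *Fezf2 shRNA*-treated libraries were above the highest control, and replicates 1 and 3 were the highest of them. The mean was 10575 ± 935 (SD, n = 4) against 7700 ± 639 (SD, n = 4), a 1.37-fold level, with a log2 fold change of 0.46 (SE 0.0818) and an edgeR adjusted p of 0.0276. The fold change was positive in all 18 alternatives, at 0.17 to 0.51, while the adjusted p ran from 2.35e-05 to 0.326. The edgeR call was lost without control replicate 1 (adjusted p = 0.0998) or 4 (0.0769) and without *Fezf2 shRNA* replicate 1 (0.0812), 3 (0.0811) or 4 (0.0625), as well as without *Fezf2 shRNA* replicates 1 and 3 together (log2 fold change 0.35, adjusted p = 0.326). The call was also lost with a block for replicate number (log2 fold change 0.46, edgeR adjusted p = 0.0536). It was lost as well when the trend of counts with genomic span was removed from each library, as described with the spans.

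*Gabrb2*, the other beta subunit gene, lies on the plus strand at chr11:42419757-42629028 (ENSMUST00000007797, 10 exons). It had 12289, 12489, 11932 and 11576 normalized counts in controls 1 to 4 and 14135, 13150, 12854 and 13438 in *Fezf2 shRNA* replicates 1 to 4. The groups did not overlap, and the lowest treated library, replicate 3, was close to the highest control. At 0.15 (SE 0.0597) the log2 fold change was below the size that the threshold asks for, with an edgeR adjusted p of 0.208.

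*Gabrd*, the delta subunit gene, spans 13.13 kb on the minus strand at chr4:155384980-155398112 (ENSMUST00000030925, 9 exons). Its normalized counts were 1481, 1407, 1410 and 1378 in controls 1 to 4 and 1379, 1374, 1288 and 1547 in *Fezf2 shRNA* replicates 1 to 4. The highest and the lowest of the 8 values were both in *Fezf2 shRNA*-treated libraries. The log2 fold change was -0.02 (SE 0.0688, edgeR adjusted p = 0.873), and its sign changed without *Fezf2 shRNA* replicate 3 (0.02).

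Levels can be compared between members only per length, and the order depends on which length is used. The first scale is normalized counts per kb of genomic interval, on which long introns lower the level. In controls *Gabrd* had the highest level on this scale, 108 ± 3.34 per kb (SD, n = 4), and its control libraries did not overlap those of the next gene. *Gabrb2*, at 57.7 ± 1.92 per kb, and *Gabra4*, at 53.6 ± 4.67 per kb, overlapped each other and were above the remaining 4. *Gabra2*, at 22.1 ± 1.36 per kb, *Gabra3*, at 19.6 ± 3.39, *Gabrb1*, at 17.1 ± 1.42, and *Gabra5*, at 16.97 ± 1.01, formed the lower end, where each overlapped its neighbour in the order. In *Fezf2 shRNA*-treated libraries *Gabrb1* was at 23.5 ± 2.08 per kb (SD, n = 4) and *Gabra5* at 15.2 ± 2.1, so the neighbours at the bottom of the control order were apart there. Per kb of spliced transcript, a scale on which reads from introns raise the level, the control order was another. *Gabrb2* led at 3026 ± 101 (SD, n = 4), *Gabra2* (1313 ± 80.8), *Gabra3* (1193 ± 207) and *Gabra4* (1156 ± 101) overlapped in turn, and *Gabrd* came 5th at 739 ± 22.8, above *Gabra5* (650.2 ± 38.6) and *Gabrb1* (561 ± 46.5). Places on this scale rest on the exon length of the counted transcript. For *Gabra2* this is 2.245 kb of a transcript annotated as subject to nonsense-mediated decay, which stops short of the annotated end of the gene.

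Ratios of counts between members within 1 library do not depend on how libraries are scaled, and 3 were tested. The log2 ratio of *Gabrb1* to *Gabrb2*, both beta subunit genes, was -0.76, -0.58, -0.56 and -0.72 in controls 1 to 4 and -0.30, -0.47, -0.19 and -0.42 in *Fezf2 shRNA* replicates 1 to 4. The ratio was higher in every *Fezf2 shRNA*-treated library than in any control. The difference was 0.31 (two-sided exact permutation p = 0.0286, the smallest that 4 against 4 can give; adjusted over the 3 ratios, 0.0857). For *Gabrd* to *Gabra4*, partners in receptors outside synapses, the log2 ratio was -1.82, -1.74, -1.78 and -1.61 in controls and -2.13, -1.95, -1.91 and -1.79 in treated libraries. The groups overlapped only through *Fezf2 shRNA* replicate 4, and the difference was -0.20 (exact permutation p = 0.0571, adjusted 0.0857). For *Gabra2* to *Gabra4*, which lie on the same strand of chromosome 5, the ratio overlapped between groups and differed by 0.08 (exact permutation p = 0.229, adjusted 0.229). None of the 3 passed 0.05 after adjustment. The ratios do depend on genomic span, which differs within each pair. As differences of fitted log2 fold changes they were 0.31, -0.20 and 0.07, and with the gene-length offset described next 0.21, -0.037 and 0.02, so that of *Gabrd* to *Gabra4* was most reduced.

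The members differ in genomic span, and the fold changes of all genes tested differed with span, so each member was set beside genes of its own class. *Gabrb1* was at 0.46 against a median log2 fold change of 0.29 for the 407 genes over 300 kb, of which 22.1% passed the threshold as higher. *Gabra2* (0.25), *Gabra3* (0.20) and *Gabrb2* (0.15) belonged to 1297 genes of 100 to 300 kb with a median of 0.15. *Gabra5*, of the same class, was 0.30 below that median, the farthest of the 7 from its class. *Gabra4* was at 0.18 against 0.01 in 3119 genes of 30 to 100 kb, and *Gabrd* at -0.02 against -0.07 in 2983 genes of 10 to 30 kb.

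When the trend with span was removed from each library, the log2 fold change of *Gabrb1* was 0.17 (edgeR adjusted p = 0.302) and that of *Gabra2* 0.12. *Gabra3* was at 0.00, *Gabra4* at 0.10 and *Gabrb2* at -0.04. *Gabra5* was at -0.26, the largest of the 7 in size, and *Gabrd* at 0.06. With this offset no member and 1 gene of 9959 (0.01%) passed the threshold, with 1078 genes at an unadjusted p under 0.05. The members' median was then 0.06, beside -0.01 over all genes. What made counts differ with span between the groups was not tested.

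**Figure D2:**
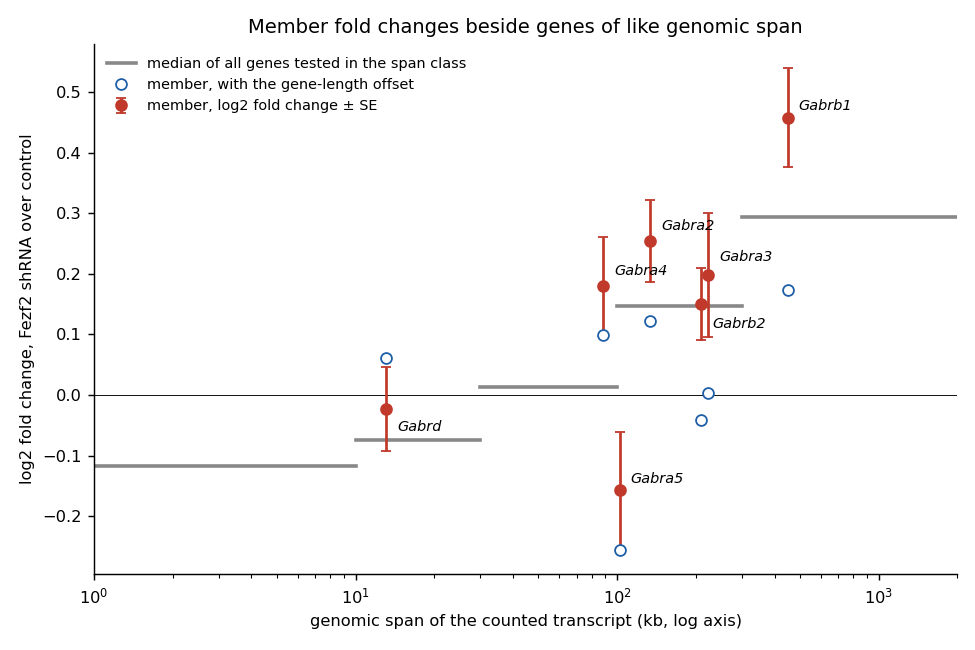
Log2 fold change of each member (vertical axis, *Fezf2 shRNA* over control) against the genomic span of its counted transcript in kb (horizontal log axis). Red points with SE bars are fitted values, open blue points the values with the gene-length offset, and grey lines the median of all genes tested in the class. *Gabrb1* is at 0.46 over a class median of 0.29, and with the offset the 7 members lie between -0.26 and 0.17.

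For 3 members the counts include shorter transcripts nested in the gene, which divide its reads by position. In *Gabrb2* a 3-exon transcript covers the first 2.88 kb, from 42419764 to 42422638, where 22.5% of bases are exonic in some annotated transcript, against 2.77% in the remaining 206.4 kb. This 5′ end had 894, 858, 957 and 762 normalized counts in controls 1 to 4 and 739, 802, 743 and 660 in *Fezf2 shRNA* replicates 1 to 4. The rest of the gene had 11395, 11632, 10975 and 10814 in controls and 13397, 12348, 12110 and 12778 in treated libraries. The 5′ end was thus lower in the mean, with overlap (log2 ratio of means -0.24, two-sided exact permutation p = 0.0571), and the rest higher without overlap (0.18, exact permutation p = 0.0286).

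Another nested transcript divides *Gabrb2* differently. Its 110.31 kb stretch, which starts within the 5′ end and is 2.57% exonic, was higher in the mean with overlap (log2 ratio of means 0.19, exact permutation p = 0.0857), and the 98.96 kb outside it were higher without overlap (0.13, exact permutation p = 0.0286). The 98.96 kb include the first bases of the gene, so the stretch and the bases outside it each hold a part of the 5′ end. Of these 4 overlapping pieces only the short 5′ end was lower in the mean. They do not show whether the lower value is confined to it.

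The share of *Gabrb2* reads on the 5′ end was 7.28%, 6.87%, 8.02% and 6.58% in controls 1 to 4 and 5.23%, 6.1%, 5.78% and 4.91% in *Fezf2 shRNA* replicates 1 to 4. Every treated library was below every control. The mean share was 5.5% ± 0.536 against 7.19% ± 0.625 (SD, n = 4 each), with an exact permutation p of 0.0286 and 0.0857 adjusted over the 3 shares tested. In *Gabrd* the nested transcript leaves out 3.66 kb, 66.9% exonic. These lie mostly at the 3′ end but include the first bases of the gene. The share of reads on the 3.66 kb was 80.3% ± 3.28 with *Fezf2 shRNA* and 78.7% ± 2.15 in controls (exact permutation p = 0.4, adjusted 0.6). In *Gabra3* a nested 155.05 kb part was set against the 67.22 kb of a longer transcript that lie outside it. Most of the 67.22 kb are toward the 3′ end, and the rest are at the 5′ start, beyond the counted interval. The share on them is thus not of the 3′ end alone. The last 1.89 kb of the gene belong to neither, and at least 32.5% of *Gabra3* counts with *Fezf2 shRNA* and 34.7% in controls lay outside both. Of the counts on these parts alone, the share on the 67.22 kb was 48.1% ± 3.68 and 47.3% ± 5.17 (exact permutation p = 0.83, adjusted 0.83). In neither of these did the groups separate.

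**Figure D3:**
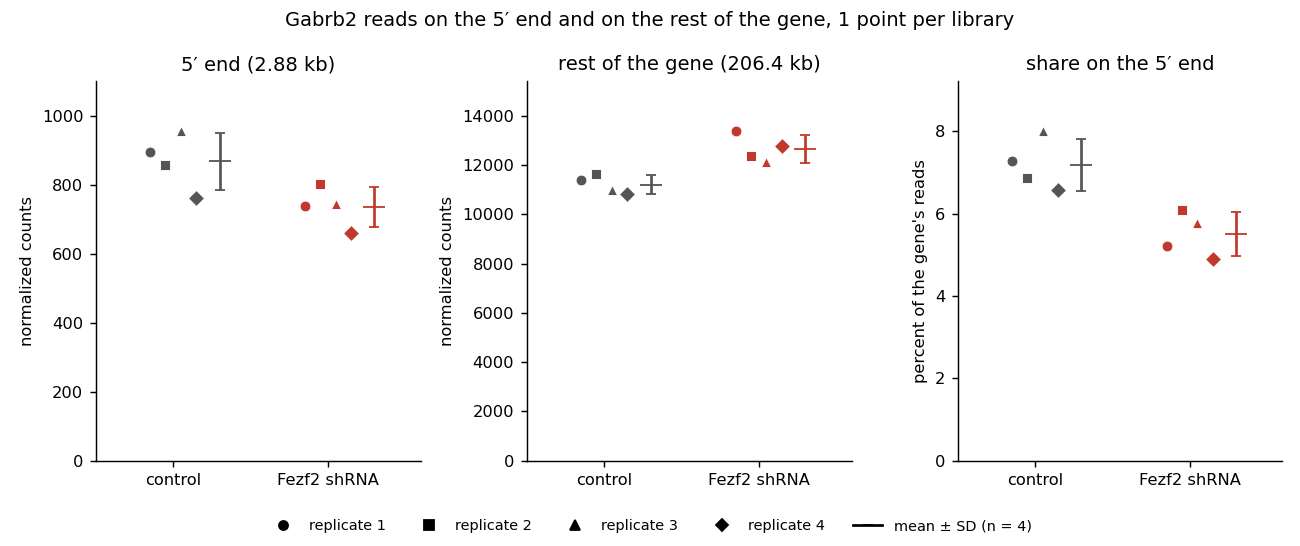
*Gabrb2* in 4 control and 4 *Fezf2 shRNA*-treated libraries: normalized counts on the 5′ end, normalized counts on the rest of the gene, and the percentage of reads on the 5′ end, with vertical axes from 0, 1 point per library and the mean ± SD (n = 4). The share on the 5′ end runs from 4.91% to 6.1% in treated libraries and from 6.58% to 8.02% in controls.

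RefSeq promoter windows of 300 bases, 250 before and 50 after a start (GRCm38.p6), were given for 6 of the 7 members, 10 windows in all; the member without one is *Gabrd*. They are described because *Gabrb1* passed the threshold and because the start region of *Gabrb2* had a share of reads that did not overlap between the groups, although it did not pass 0.05 after adjustment. The 250 bases before each of these starts are printed from 5′ to 3′ on the plus strand, for *Gabrb1* chr5:71699682-71699931 and for *Gabrb2* chr11:42420190-42420439. Capitals mark CGCATGCG, the core of the palindrome bound by NRF1, in *Gabrb1* and TATAAA in *Gabrb2*.

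*Gabrb1*: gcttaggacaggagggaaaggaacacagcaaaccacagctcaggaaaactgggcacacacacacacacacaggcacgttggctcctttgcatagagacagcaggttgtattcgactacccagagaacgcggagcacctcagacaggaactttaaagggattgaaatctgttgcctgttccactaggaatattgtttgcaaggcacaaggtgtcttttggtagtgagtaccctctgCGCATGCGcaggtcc
*Gabrb2*: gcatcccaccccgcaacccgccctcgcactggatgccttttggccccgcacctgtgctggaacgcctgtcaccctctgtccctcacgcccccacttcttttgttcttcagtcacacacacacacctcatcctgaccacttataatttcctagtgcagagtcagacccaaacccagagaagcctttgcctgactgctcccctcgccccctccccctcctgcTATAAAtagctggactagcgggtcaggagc

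The *Gabrb1* start of this window is the first base of the counted transcript, and the marked letters lie 15 to 8 bases before it. CGCATGCG occurred on either strand in 1.87% of 32851 promoter windows of the same length and in no other member's window. The *Gabrb2* start lies 683 bp inside the counted interval, within the 5′ end described above, with TATAAA 30 to 25 bases before it. TATAAA on either strand was in 13.6% of all windows, and among the members also in both *Gabra3* windows. GGGCGG, the core of an SP1 GC box, was in 35.7% of all windows and in those of *Gabra2* and *Gabra4* and the same *Gabrb2* window. CACGTG (E-box, 7.15% of all windows) and TGACGTCA (cAMP response element, 1.79%) were in no member's window. These letters were searched after the fold changes were known, and a match is no evidence of binding.

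Base composition differed between the members' windows. The *Gabra2* window had 70% G and C and 25 CG dinucleotides, against medians of 52.7% and 7 over all windows. The *Gabra3* windows had 39.3% and 43.0% with 0 CG dinucleotides. *Gabrb1* had 50.3% and 9 at the counted start, and 66.0% and 25 at a second start, which lies farther upstream. In the GENCODE annotation *Gabrb1* begins 192 bp downstream of that second start, at base 71658113 of chromosome 5, and overlaps the first 196 bp of *Gabra4* on the opposite strand, so the genes are annotated head to head. The counted *Gabrb1* transcript begins 41.6 kb away from *Gabra4*.

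Of 38 genes tested in the 5 lists for the rest of the pathway, 0 passed the threshold in the edgeR quasi-likelihood test and 7 (18.4%) had an unadjusted p under 0.05, beside 2.09% and 19.6% of all genes tested. By the DESeq2 Wald test 4 passed (10.5%), all higher, beside 7.55% in either direction over all genes. Of 12 other GABA-A receptor subunit genes, 5 were abundant enough to be tested and 0 passed by edgeR (2 by DESeq2), with a median log2 fold change of -0.02. This median covers unlike values, from -0.06 to 0.45. The highest was close to that of *Gabrb1*, with an edgeR adjusted p of 0.0619 and every treated library above every control, and the next was 0.25 (edgeR adjusted p = 0.135). Of 20 genes for receptor clustering and trafficking partners 0 passed (2 by DESeq2), with 10 positive and 10 negative values and a median of 0.00. Of 7 genes for GABA synthesis, vesicle loading, uptake and breakdown 0 passed by either tool, and the median was -0.07. Their summed level was 646, 652, 637 and 673 CPM in controls 1 to 4 and 595, 593, 609 and 607 CPM in *Fezf2 shRNA* replicates 1 to 4. All treated libraries were below all controls in this sum, also with TMM or DESeq2 scaling. Of 6 chloride gradient genes 5 were tested and 0 passed by either tool (median -0.03), and of 4 neurosteroid and endozepine genes only *Dbi*, for the endozepine precursor, was tested and did not pass (-0.13), while *Akr1c14* (7.66 CPM) and *Srd5a1* (1.89 CPM), enzymes of neurosteroid synthesis, were too low. Over all genes tested 1947 had an unadjusted p under 0.05, as did 3 of the 7 members.

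*Gphn* (gephyrin) had 6235, 6410, 5972 and 5681 normalized counts in controls 1 to 4 and 30612, 6365, 40678 and 6751 in *Fezf2 shRNA* replicates 1 to 4. *Fezf2 shRNA* replicates 1 and 3 were 4.91 and 6.52 times the mean of the other 6 libraries, which lay between 5681 and 6751. The log2 fold change of 1.8 (SE 0.523, edgeR adjusted p = 0.102) therefore rests on those libraries, and without them it was 0.11 (adjusted p = 0.659). The 2 annotated transcripts counted for *Gphn* have nearly the same interval, so the position of these reads within the gene is not resolved here. These were also the highest libraries for *Gabrb1*, and the part of this in the *Gabrb1* result was not tested beyond leaving the libraries out.

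Among the most abundant genes of the other lists, *Plcl2*, related to a binding protein of the receptor, had a log2 fold change of 0.14 (SE 0.0969). *Abat*, GABA transaminase, was at -0.07 (SE 0.0589) and *Gad1*, a GABA-synthesizing enzyme, at -0.10 (SE 0.0671). *Slc12a5*, the chloride exporter KCC2, was at 0.02 (SE 0.066), *Stk39*, a kinase that acts on it, at 0.11 (SE 0.0658), and *Slc12a2*, the chloride importer NKCC1, at -0.06 (SE 0.0877). None of these passed the threshold.

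**Figure D4:**
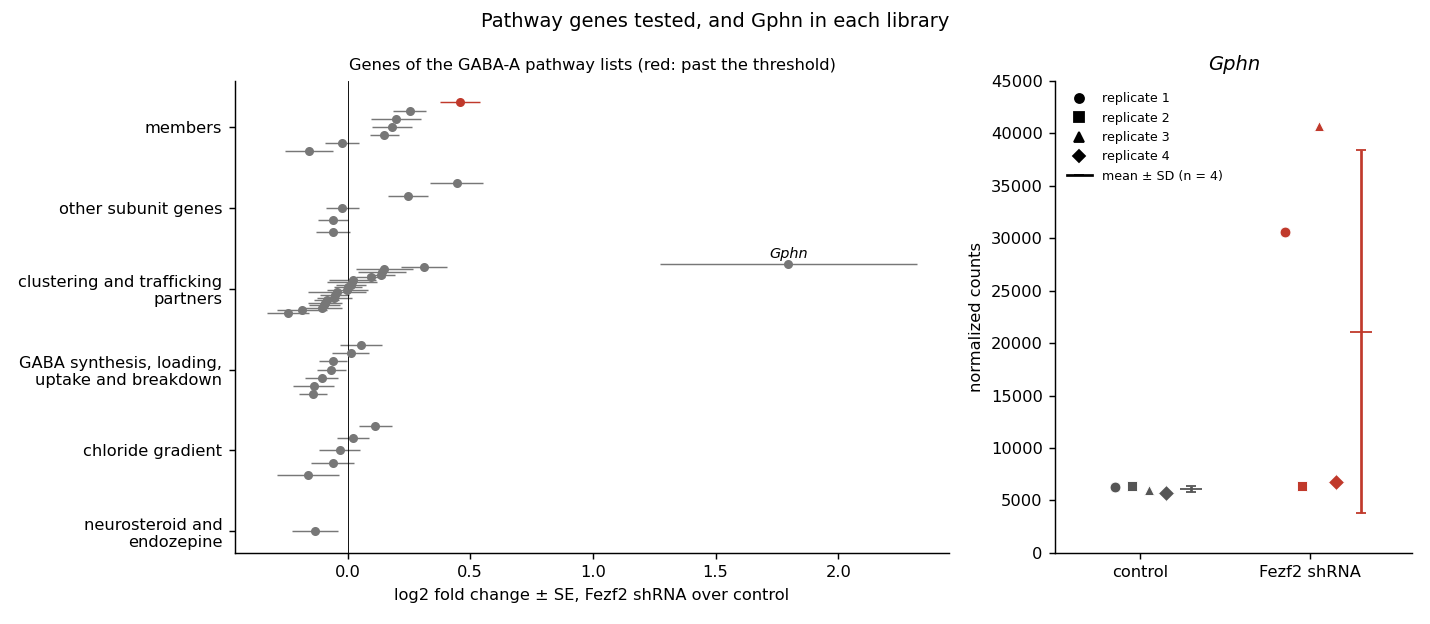
Left, log2 fold changes ± SE (horizontal axis, *Fezf2 shRNA* over control) of the tested genes of each GABA-A pathway list, 1 point per gene, red where past the threshold; right, normalized counts of *Gphn* in each library with the mean ± SD (n = 4). *Gabrb1* (0.46) is the gene past the threshold, and *Gphn* is at 1.8 with 30612 and 40678 counts in *Fezf2 shRNA* replicates 1 and 3 against 5681 to 6751 elsewhere.

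Markers of the cell types in the tissue were read beside the members, since in bulk tissue fewer cells of a type and less RNA per cell cannot be told apart. None of the marker genes tested passed the threshold in the edgeR test; by DESeq2 3 did, 1 projection neuron marker that was higher and 1 marker each of oligodendrocytes and oligodendrocyte precursors that were lower. The 6 projection neuron markers, with *Camk2a* the most abundant, had a median log2 fold change of -0.04, and the 7 interneuron markers, led by *Gad1*, -0.09. The 5 oligodendrocyte markers, led by *Mbp*, were all lower in the mean (median -0.55), and their summed level was 991, 1375, 1216 and 1962 CPM in controls 1 to 4 and 780.1, 747, 1257 and 1227 CPM in *Fezf2 shRNA* replicates 1 to 4. These sums overlapped between the groups and varied more within a group than any member. The medians were -0.08 for 5 astrocyte markers (led by *Slc1a3*), -0.08 for 3 oligodendrocyte precursor markers (*Pdgfra*) and 0.08 for 5 microglia markers (*Csf1r*). The precursor median covers unlike values: *Olig1*, named after its values were seen, was at -0.34 (edgeR adjusted p = 0.0527, DESeq2 0.00598), lower in every treated library than in any control. No endothelial marker was abundant enough to be tested (*Flt1* led, at 6.74 CPM), and of 4 striatal projection neuron markers only *Ppp1r1b* was tested (-0.20). No marker was at 0, and the part of any cell type in the member values was not tested.

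The summed level of the 7 members was 612, 651, 629 and 616 CPM in controls 1 to 4 and 755, 695, 724 and 700.0 CPM in *Fezf2 shRNA* replicates 1 to 4. All treated libraries were above all controls in this sum, to which *Gabrb2* and *Gabrb1* contributed most reads. The sum was not corrected for genomic span. The span classes of *Gabrb2* and *Gabrb1* had median log2 fold changes of 0.15 and 0.29. With the gene-length offset these genes were at -0.04 and 0.17. Across the 8 libraries, with the mean of its own group taken from each value, the tested genes most like the mean of the members included *Gm14643*, *Mob3b*, *Nav3* and *1700019D03Rik*. Their Pearson r with it was 0.985 to 0.991 over 8 libraries that share depth and scaling, within the 5 highest among 9952 genes, and their intervals spanned 30.5 to 605 kb.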

How the data were processed

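Raw counts per Ensembl transcript, deposited for 8 libraries, were used. The authors made these counts from paired-end reads of stranded total RNA libraries by alignment to mm10 (GRCm38) with TopHat2 2.1.1 and counting over Ensembl annotation with BEDTools multiCov 2.26.0 (versions per the submitters' processing notes); the use of strand and of split alignments is not stated, and what the counts cover was checked on transcripts nested in introns of other genes. A deposited table of the authors' own DESeq2 comparison was not used. Of 94647 transcripts, 91320 were placed by GENCODE M21, and 1.82% of counts lay on the others. Libraries were grouped by their titles, and none were duplicates.

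Genes that exceeded 8 CPM in 4 or more libraries were tested with edgeR 4.0.16 in R 4.3.3 (TMM, quasi-likelihood, Benjamini-Hochberg over all 9959), and single values with two-sided exact permutation tests. Reads outside a nested transcript were taken by subtraction. Alternatives were DESeq2 1.42.0, other scalings, filters and transcripts, a replicate block, a gene-length offset (loess, span 0.3) and leaving out libraries. The members and gene lists were chosen with earlier results of these data known. Named genes were the members, *Fezf2*, the 3 most abundant genes of each pathway list or any past the threshold, the most abundant gene of each marker list and the 5 genes most like the members. Other subunit genes are given only as counts, and some genes under this rule are not reported here.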

Additional observations from a re-analysis of the deposited data

Results flagged for a closer look

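In 4 of 66 groups of 4 libraries, 1 library lay far from the other 3; chance gives about 5 in every 100 such groups. None of the 4 was a member. *Camk2a*, a kinase of projection neurons, had 34520 normalized counts in control replicate 1 and 29480 to 30330 in the other controls. *Csf1r*, a receptor of microglia, had 2236 in *Fezf2 shRNA* replicate 3 and 2784 to 2850 in the others of its group. *Flt1*, a receptor of endothelial cells, had 275.4 in *Fezf2 shRNA* replicate 2 and 379 to 395 in the others. *Akr1c14*, an enzyme of neurosteroid synthesis, had 339.4 in control replicate 4 and 424 to 432 in the other controls. The causes were not tested.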

How the results depend on the processing

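*Gabrb1* kept a positive fold change in all 18 alternatives and its call in 9. The count of members past the threshold, 1, was 2 by DESeq2 and 0 with the gene-length offset, with the replicate block, with both, and without *Fezf2 shRNA* replicates 1 and 3 together (an alternative chosen after seeing the data); without 1 library it was 0 to 2. The count of all genes, 208, was 136 with library totals, 84 with a filter of more than 1 CPM, 103 with no filter, 752 by DESeq2, 90 with the replicate block, 1 with the gene-length offset, 2 with both, 1 without *Fezf2 shRNA* replicates 1 and 3, and 0 to 368 without 1 library, 0 of them without control replicate 1 (1568 genes at an unadjusted p under 0.05). Leaving out libraries also lowers the number of samples; the other causes were not tested. Same-numbered libraries deviated with correlations of 0.30, 0.09, -0.13 and 0.17, the first being the highest of all 16 pairs. As 2 of the 4 were not over 0.1, and 4 of 8 libraries correlated best with their own number, the numbers were not taken to pair the samples. With the block *Gabrb1* was at 0.46 (adjusted p = 0.0536).

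*Fezf2* was at -0.28 and past the threshold by DESeq2, and at -0.18 with the gene-length offset, both alone and with the block. *Gabrb2* was at -0.041 with the gene-length offset and -0.042 with block and offset. *Gabrd* was at 0.062 and 0.0595 in these, 0.042 without *Fezf2 shRNA* replicates 1 and 3, and -0.075 to 0.018 without 1 library, positive only without *Fezf2 shRNA* replicate 3. *Gabra5* stayed negative but ran from -0.33 to -0.083. Without 1 library the *Gabrb1* to *Gabrb2* ratio differed by 0.26 to 0.35 and *Gabrd* to *Gabra4* by -0.26 to -0.14, each with an adjusted exact permutation p of 0.0429 without *Fezf2 shRNA* replicate 4. *Gabra2* to *Gabra4* differed by 0.041 (*Fezf2 shRNA* replicate 3 left out) to 0.10. The *Gabrd* share differed by 0.50 to 3.02 percentage points, without *Fezf2 shRNA* replicates 2 and 4, respectively. The *Gabra3* share differed by -1.41 (control replicate 3 left out) to 2.21 percentage points, and by -0.72 with *Fezf2 shRNA* replicate 2 left out. Among the clustering partners, *Gphn* and *Plcl1* passed the threshold by DESeq2, and *Gphn* and *Gabarap* without *Fezf2 shRNA* replicate 2. Of the other subunit genes 2 passed by DESeq2 and 1 without control replicate 2. With 4 samples a group, the exact permutation test cannot give a p under 0.0286.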

Other observations

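The genes for which *Fezf2 shRNA* replicates 1 and 3 exceeded every other library by more than 3 times included *Gphn*, *Gm42418*, *Lars2* and *Kcnip1*, named after their values were seen. *Lars2*, a mitochondrial leucyl-tRNA synthetase gene, had 43004 and 76972 normalized counts in those libraries and 975 to 1494 in the other 6. *Gm42418* had 35665 and 144677 against 4876 to 6595. *Kcnip1*, for a potassium channel partner, had 4985 and 7726 against 1152 to 1439. In these 4 genes replicate 3 was above replicate 1. What these genes share in those libraries was not tested.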
